A study of Homo sapiens with 20 samples.

Results

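The genes described here are 10 that let myeloma cells find, enter and hold on to bone marrow: the chemokine receptor CXCR4, the integrin chains ITGA4 and ITGB1, the immunoglobulin-family ligands ICAM1 and ICAM3, the hyaluronan receptor CD44, the selectin ligand SELPLG, the matrix protein SPP1 and the galectins LGALS1 and LGALS3. They were chosen by name, each matched through its Ensembl identifier (symbols and positions are those of GENCODE 29 on hg38), and are 10 of the 60483 genes listed. The choice was made with earlier results of these data known, so shares of the 10 set beside shares of all genes are descriptions only. All 10 passed the filter of at least 1 FPKM (fragments scaled to the length of the gene and the total of the library) in at least 2 libraries, which left 15687 genes for testing.

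Myeloma is a cancer of plasma cells, which live in the bone marrow. Stromal cells there release CXCL12, which draws in cells that carry CXCR4, and cells slow on vessel walls when SELPLG (PSGL-1) meets P-selectin. The chains encoded by ITGA4 and ITGB1 pair as the integrin VLA-4, which grips VCAM1 and fibronectin, and ICAM1 and ICAM3 are ligands of the leukocyte integrin LFA-1. CD44 binds hyaluronan, osteopontin from SPP1 is a secreted protein that binds integrins and CD44, and galectins bind sugar chains rich in galactose on surface and matrix proteins.

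Messenger RNA levels came from RNA sequencing of 5 human models, each with DMSO, the solvent control, or with indirubin-3'-monoxime (I3MO), a kinase inhibitor of the indirubin family. The models were the established myeloma lines ANBL6, ARP1, RPMI8226 and U266, labelled wild type, and ANBL6BR, the form of ANBL6 labelled bortezomib resistant. I3MO was given at 5 µM to ANBL6 and ANBL6BR and at 10 µM to ARP1, RPMI8226 and U266, and effects of dose and of model cannot be told apart between these sets. Each of the 10 groups held 2 libraries, the sources used here give no treatment time, and no label says whether replicates were separate cultures, so p-values measure only the spread between these libraries. Fewer cells of a kind and less RNA per cell cannot be told apart in such bulk samples.

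Library totals recovered from the steps of the FPKM values were 12.11 to 20.31 M fragments. Of 11 plasma cell markers 9 were tested, and XBP1 was listed at 0 in every library; their summed level was 217 to 626 FPKM, while all 7 T and NK cell markers were below 1 FPKM throughout, with a sum of 0.0878 to 1.28. By library, the sum of 8 stromal fibroblast markers reached at most 8.93 FPKM, 9 monocyte and macrophage markers 2.84, 5 erythroid markers 5.99, 7 B cell markers 21.0 and 6 endothelial markers 20.3, the last led by EGFL7 in RPMI8226. The plasma cell sum was lower with I3MO in ARP1 (469 to 472 against 542 to 626 FPKM), RPMI8226 (410 to 418 against 569 to 576) and U266 (217 to 230 against 504 to 505). Its part in the responses below was not tested. Single plasma cell markers did not all move this way. PRDM1 was higher with I3MO in ARP1 (24.2 and 21.6 against 15.6 and 12.4 FPKM) and MZB1 in U266 (3.2 and 3.2 against 1.35 and 1.5). The ANBL6BR DMSO libraries stood apart from each other, with plasma cell sums of 237 and 619 FPKM and a median difference of 0.422 between replicates over the 10 genes on the log2(FPKM + 1) scale, against 0.056 to 0.207 in the other groups. The ANBL6 I3MO libraries listed 32668 and 28419 genes above 0, against 22138 and 22710 with DMSO, and the part of this in the ANBL6 results was not tested.

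The I3MO libraries of SELPLG lay below its DMSO libraries in all 5 models, and its fall was called in ARP1, RPMI8226 and U266. Among the others, CXCR4 fell and ITGB1 rose in ARP1, ITGA4 and CD44 fell in U266, SPP1 fell in ANBL6 and ANBL6BR, ICAM1 fell in ANBL6, LGALS1 fell in ARP1 and LGALS3 rose in RPMI8226, while ICAM3 was called in none. A gene is called changed here where the Benjamini-Hochberg adjusted p of limma's test on log2(FPKM + 1), over all 15687 genes, was under 0.05. With 2 libraries a side, groups often do not overlap without any change, and the share of all genes that did so was not counted. Lack of overlap below therefore describes the libraries and is not a call. Called members numbered 0 higher and 2 lower in ANBL6, where 4.10% of all tested genes were called higher and 3.87% lower, and 0 higher and 1 lower in ANBL6BR, against 10.0% and 8.40%. In ARP1 1 member was called higher and 3 lower, against 23.1% and 13.9% of all genes, in RPMI8226 1 and 1, against 6.19% and 8.62%, and in U266 0 and 3, against 10.5% and 15.8%. Each count lies within 2 genes of what those shares would give among 10. Counts of rises and falls in the wider gene lists below include any of the 10 that belong to a list. They are to be read beside the same shares of all genes. Over all genes, rescaling the libraries by median ratios moved the share of calls that were higher from 51.4% to 37.3% in ANBL6 and from 62.5% to 40.8% in ARP1. Fitted on the 4 compared libraries alone, the test called 0 members in ANBL6 and ANBL6BR. It called 1 in ARP1 (SELPLG), 3 in RPMI8226 (SELPLG, CXCR4 and ITGB1) and 1 in U266 (SELPLG).

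**Figure D1:**
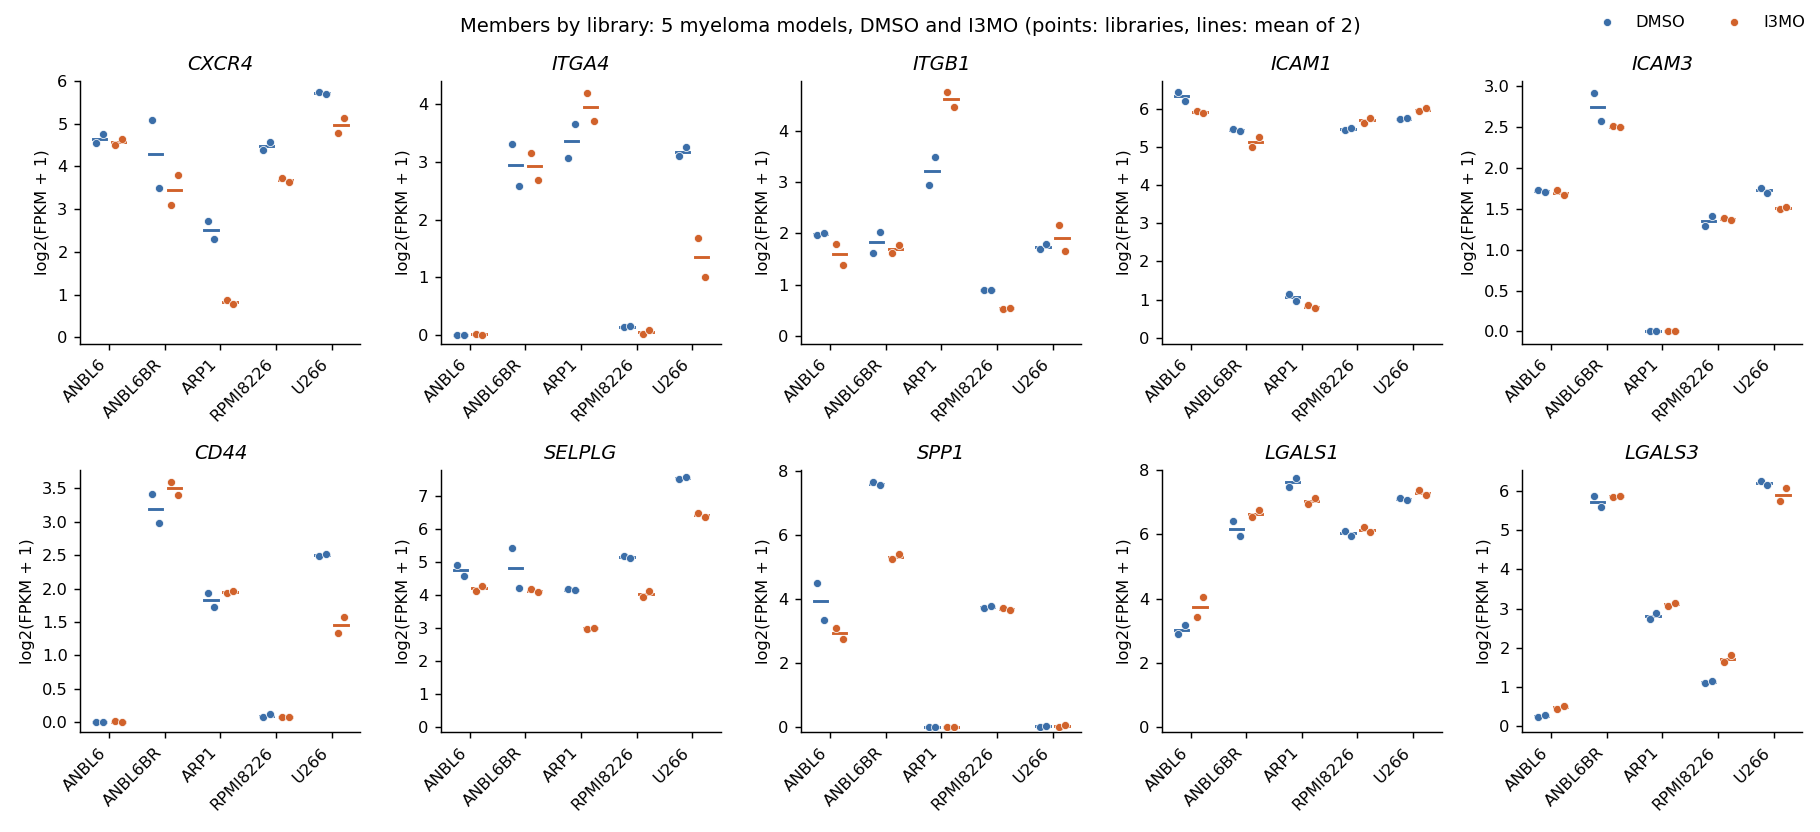
Level of each gene on the log2(FPKM + 1) scale (vertical axis) in the 20 libraries, by model (horizontal axis); blue points are DMSO libraries, orange points I3MO libraries, and short lines the mean of 2. SELPLG lies lower with I3MO in all 5 models, and CD44 and ITGA4 lie near 0 in ANBL6 and RPMI8226.

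CXCR4 (ENSG00000121966.6, chr2:136114349-136118165, minus strand), the receptor for CXCL12, was present in every model, with the highest DMSO level in U266 and the lowest in ARP1. Its DMSO libraries held 53.0 and 50.7 FPKM in U266, 22.4 and 25.9 in ANBL6, 32.8 and 10.4 in ANBL6BR, 19.99 and 22.7 in RPMI8226 and 5.65 and 3.94 in ARP1. U266 was above ANBL6 (limma adjusted p = 0.022) and RPMI8226 above ARP1 (limma adjusted p = 0.000666), while ANBL6, ANBL6BR and RPMI8226 were not called apart. I3MO libraries held 26.8 and 34.0 FPKM in U266, 12.3 and 11.5 in RPMI8226, 7.60 and 12.9 in ANBL6BR, 21.6 and 24.1 in ANBL6 and 0.816 and 0.726 in ARP1. The treated libraries were thus lower without overlap in U266, RPMI8226 and ARP1, and overlapped the controls in ANBL6 and ANBL6BR.

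Only the fall of CXCR4 in ARP1 passed the test, with a log2 difference of -1.70 ± 0.37 (SE, limma adjusted p = 0.00364). Summed over the ARP1 libraries, 840 fragments with DMSO stood against 123 with I3MO, a ratio of 0.161 with a 95% exact interval of 0.132 to 0.195 that covers counting error only. The log2 differences in ANBL6BR, RPMI8226 and U266 were -0.84, -0.79 and -0.76 (limma adjusted p = 0.155, 0.204 and 0.168). The SE of 0.37 was the same in every model, as the 10 groups shared 1 estimate of the spread. Fitted on the compared libraries alone, the fall of CXCR4 was called in RPMI8226 (limma adjusted p = 0.0431) and not in ARP1 (0.0572). Without ANBL6BR DMSO replicate 2, the library with 10.4 FPKM, the difference in ANBL6BR was -1.63 (limma adjusted p = 0.00113), and without replicate 1 it was -0.05 (not called).

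Among 21 chemokine and sphingosine phosphate receptors and ligands, CXCR4 included, 11 were tested. Of these, 1 rose and 1 fell in ANBL6, 1 rose and 3 fell in ANBL6BR, 1 rose and 4 fell in ARP1, none rose and 2 fell in RPMI8226, and none rose and 5 fell in U266. CXCR3, a receptor for interferon-induced chemokines, fell in RPMI8226 from 5.62 and 5.51 FPKM to 0.0928 and 0.0707 (log2 difference -2.60, limma adjusted p = 5.57e-07), and it also fell in ARP1 (-1.57) and ANBL6 (-0.52). CCR1, a receptor for CCL3, fell in U266 from 71.6 and 70.2 to 25.1 and 35.0 FPKM (limma adjusted p = 0.00363) and in ANBL6BR from 41.6 and 20.2 to 16.0 and 15.4 (limma adjusted p = 0.0385). The ANBL6BR controls of CCR1 stood apart from each other, and its call there was not tried without either library. CCL3 itself fell in the same models, from 58.4 and 52.7 to 28.7 and 27.2 FPKM in U266. In ANBL6BR its group mean was low throughout, at 0.992 FPKM with DMSO and 0.297 with I3MO. S1PR1, the receptor through which lymphocytes leave tissues for blood, rose in ARP1 from 0.385 and 0.372 to 1.5 and 1.59 FPKM (limma adjusted p = 2.32e-05).

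ITGA4 (ENSG00000115232.12, chr2:181457202-181536187, plus strand), the alpha chain of VLA-4, was either clearly present or almost absent. DMSO libraries held 7.38 and 11.6 FPKM in ARP1, 7.58 and 8.54 in U266 and 8.95 and 5.02 in ANBL6BR, and these models were not called apart (limma adjusted p = 0.601 and 0.503 for neighbours in that order). RPMI8226 held 0.0966 and 0.114 FPKM (23 and 28 fragments), below ANBL6BR (limma adjusted p = 1.45e-06), and ANBL6 held 0 and 1 fragment, where 3 fragments, the limit a count of 0 allows, are 0.0133 FPKM.

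With I3MO, ITGA4 fell in U266 to 2.21 and 1.02 FPKM, below both controls. The log2 difference was -1.83 ± 0.28 (SE, limma adjusted p = 0.000348) and the fragment ratio 0.195 (95% interval 0.181 to 0.211, counting error only). In ARP1 the treated libraries were higher than the controls without overlap, at 17.3 and 12.1 FPKM, but the log2 difference of 0.59 did not pass (limma adjusted p = 0.12). ANBL6BR stayed at 7.88 and 5.47 FPKM, inside the range of its controls, and the treated RPMI8226 libraries held 2 and 20 fragments.

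ITGB1 (ENSG00000150093.17, chr10:32900319-33005792, minus strand), the beta chain shared by VLA-4 and many other integrins, was highest in ARP1. Controls held 6.63 and 10.2 FPKM there, 2.90 and 3.03 in ANBL6, 2.06 and 3.08 in ANBL6BR, 2.21 and 2.45 in U266 and 0.871 and 0.869 in RPMI8226. ARP1 was above ANBL6 (limma adjusted p = 0.000237) and RPMI8226 below U266 (limma adjusted p = 0.00396), with no call between neighbours among the 3 models in the middle. ITGB1 rose in ARP1 to 26.0 and 21.05 FPKM, above both controls, with a log2 difference of 1.40 ± 0.21 (SE, limma adjusted p = 0.000312) and a fragment ratio of 2.76 (95% interval 2.68 to 2.85). Treated libraries held 2.47 and 1.61 FPKM in ANBL6 and 0.435 and 0.462 in RPMI8226, lower than their controls without overlap but not called (limma adjusted p = 0.289 and 0.312). In ANBL6BR they held 2.08 and 2.42 FPKM and in U266 3.46 and 2.15, both overlapping the controls. Fitted on the compared libraries alone, the lower ITGB1 level in RPMI8226 was called (limma adjusted p = 0.037) and the rise in ARP1 was not (0.0783).

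Of 26 integrin chains 13 were tested, and ITGB7, which pairs with the chain from ITGA4 as an alternative to ITGB1, was among them. ITGB7 rose in ARP1 from 82.4 and 71.2 to 118 and 110 FPKM (log2 difference 0.57, limma adjusted p = 0.0175) and fell in U266 from 9.30 and 9.46 to 4.56 and 4.03 (-0.97, limma adjusted p = 0.000866). In ARP1 4 of the 13 chains rose and 1 fell; ITGAV and ITGA5, alpha chains that pair with ITGB1, were among those that rose. No integrin rose and 3 fell in each of RPMI8226 and U266, 1 rose and 2 fell in ANBL6 and 1 rose and 1 fell in ANBL6BR. Of 21 genes linked to integrin activation, its restraint or adhesion complexes, 16 were tested, and a rise or fall has no single meaning for integrin activity. None rose and 3 fell in ANBL6, 3 rose and none fell in ANBL6BR, none rose and 1 fell in RPMI8226, 2 rose and 6 fell in ARP1 and 3 rose and 3 fell in U266. TLN1, which links integrin tails to actin, rose in U266 from 20.3 and 23.7 to 37.9 and 39.3 FPKM (limma adjusted p = 0.000139) and in ANBL6BR from 8.69 and 8.60 to 13.8 and 12.8 (0.00287). It fell in ARP1 from 38.5 and 34.0 to 25.6 and 23.4 FPKM (limma adjusted p = 0.00161) and in ANBL6 from 27.5 and 28.5 to 23.3 and 19.1 (0.0397), and was not called in RPMI8226 (0.377).

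ICAM1 (ENSG00000090339.7, chr19:10270835-10286615, plus strand), a ligand of LFA-1, was high in 4 models and low in ARP1. DMSO libraries held 85.8 and 73.0 FPKM in ANBL6, 51.8 and 53.1 in U266, 42.4 and 43.7 in RPMI8226, 43.6 and 41.7 in ANBL6BR and 1.23 and 0.941 in ARP1. Each step of this order was called except that from RPMI8226 to ANBL6BR (limma adjusted p = 0.962), and ANBL6BR held 39.5 times as many ICAM1 fragments per total as ARP1 (95% interval 34.7 to 45.1, counting error only).

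The treated ICAM1 libraries did not overlap the controls in any model, but the side differed, and with 2 against 2 libraries this alone is weak evidence of change. They were lower in ANBL6 (60.8 and 58.3 FPKM), ANBL6BR (31.0 and 37.6) and ARP1 (0.80 and 0.714), and higher in RPMI8226 (48.6 and 53.0) and U266 (60.5 and 63.7). At the settings used here only the fall in ANBL6 was called, at a log2 difference of -0.41 ± 0.10 (SE, limma adjusted p = 0.032). It was no longer called on leaving out DMSO replicate 1 (-0.29, limma adjusted p = 0.235) or I3MO replicate 1 (0.0641) or 2 (0.185), nor with the replicate number as a block (0.0748), a pseudocount of 0.1 (0.065) or a fit to only the compared libraries (0.174). The lower values in ARP1 (log2 difference -0.24, limma adjusted p = 0.0842) were called with a pseudocount of 0.1 (-0.46, 0.0112), with median-ratio scaling (-0.38, 0.0264) and without DMSO replicate 2 (-0.34, 0.0461).

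ICAM3 (ENSG00000076662.8, chr19:10333776-10339823, minus strand), another LFA-1 ligand found on resting leukocytes, was highest in ANBL6BR and was not detected in the ARP1 controls. Controls held 6.57 and 4.98 FPKM in ANBL6BR, 2.39 and 2.23 in U266, 2.32 and 2.26 in ANBL6, 1.45 and 1.67 in RPMI8226, and 0 fragments in both ARP1 libraries, where 3 fragments are 0.0139 and 0.0129 FPKM. ANBL6BR was above U266 (limma adjusted p = 5.89e-07), and ANBL6 above RPMI8226 (limma adjusted p = 0.00411), while U266 and ANBL6 were not called apart. With I3MO the libraries held 4.72 and 4.67 FPKM in ANBL6BR, 1.82 and 1.88 in U266, 2.32 and 2.18 in ANBL6, 1.61 and 1.58 in RPMI8226, and 0 and 1 fragment in ARP1. The ANBL6BR and U266 libraries lay below their controls without a call (limma adjusted p = 0.0898 and 0.105).

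ICAM levels carry a limit: 71.2% of the exon bases of ICAM3 also belong to AC114271.1 on the opposite strand, and 23.6% of those of ICAM1 to AC011511.2 and AC011511.5, also opposite. Whether counting used strand is not given in the sources used here, so fragments there cannot be assigned with certainty, and the levels of both genes are uncertain against other genes; the partner genes were listed at no more than 1.05 FPKM. For the other 8 genes the shared part was at most 0.84%. Of 16 immunoglobulin-family adhesion genes 9 were tested: none rose and 1 fell in ANBL6 and in U266, 1 rose and none fell in ANBL6BR, and 1 rose and 1 fell in ARP1 and in RPMI8226. PECAM1, an adhesion molecule of leukocytes and vessel lining, fell in U266 from 4.26 and 4.49 to 0.394 and 0.697 FPKM (log2 difference -1.81, limma adjusted p = 0.000558).

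CD44 (ENSG00000026508.15, chr11:35138870-35232402, plus strand), the main hyaluronan receptor, divided the models as ITGA4 did. DMSO libraries held 9.65 and 6.92 FPKM in ANBL6BR, 4.62 and 4.73 in U266, 2.82 and 2.29 in ARP1, 0.0593 and 0.0853 in RPMI8226 (35 and 52 fragments), and 1 and 0 fragments in ANBL6. Every step down to RPMI8226 was called (limma adjusted p = 0.000328, 0.000444 and 1.32e-07), and RPMI8226 and ANBL6 were not called apart on this scale (0.566).

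CD44 fell in U266 to 1.52 and 1.98 FPKM, with a log2 difference of -1.05 ± 0.13 (SE, limma adjusted p = 6.03e-05) and a fragment ratio of 0.377 (95% interval 0.358 to 0.396, counting error only). Treated libraries held 11.1 and 9.62 FPKM in ANBL6BR and 2.82 and 2.92 in ARP1, at or above most of the controls but overlapping them (limma adjusted p = 0.123 and 0.509). RPMI8226 kept 35 and 40 fragments and ANBL6 5 and 3, all under 0.1 FPKM. Without ANBL6BR DMSO replicate 1 the difference in ANBL6BR was 0.52 and called (limma adjusted p = 0.00704).

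Of 20 genes of hyaluronan and proteoglycans, 12 were tested. MSN encodes moesin, which ties the tail of CD44 to actin, and it fell in ANBL6BR (127 and 139 to 89.7 and 72.4 FPKM, limma adjusted p = 0.00341), ARP1 (147 and 129 to 71.1 and 68.0, 0.000196), RPMI8226 (54.5 and 59.5 to 40.6 and 41.9, 0.0406) and U266 (93.6 and 101 to 55.1 and 74.3, 0.00569); in ANBL6 it was not called (67.3 and 66.1 to 59.9 and 53.5, 0.346). SDC1, the heparan sulphate proteoglycan known as CD138 that marks plasma cells, fell in U266 from 269 and 268 to 99.9 and 91.7 FPKM (log2 difference -1.48, limma adjusted p = 0.000532), while SDC3 rose there from 0.571 and 0.458 to 3.17 and 3.09. In this list 2 genes rose and 5 fell in each of ARP1 and U266, 1 rose and 3 fell in ANBL6BR, and none rose and 1 fell in each of ANBL6 and RPMI8226.

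LGALS3 shared the low levels of CD44 and ITGA4 in ANBL6 and RPMI8226, so the promoter windows of these 3 genes are shown together. Each window runs from 250 bases before to 50 bases after a RefSeq start site (GRCh38.p14) and is printed 5' to 3' on the gene's strand: chr11:35138921-35139220 (plus strand), chr2:181457136-181457435 (plus) and chr14:55129002-55129301 (plus). Capitals mark matches, on either strand, to a TATA motif (TATAAA), a GC box (GGGCGG), an AP-1 motif (TGANTCA), a STAT motif (TTCNNNGAA), the core bound by the aryl hydrocarbon receptor (GCGTG) or an E-box (CACGTG).
CD44 promoter: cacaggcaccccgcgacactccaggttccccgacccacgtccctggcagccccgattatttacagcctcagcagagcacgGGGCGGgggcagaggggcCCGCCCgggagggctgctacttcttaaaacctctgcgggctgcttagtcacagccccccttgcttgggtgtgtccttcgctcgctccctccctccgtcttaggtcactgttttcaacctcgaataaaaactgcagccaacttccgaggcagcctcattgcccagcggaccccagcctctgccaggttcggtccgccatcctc
ITGA4 promoter: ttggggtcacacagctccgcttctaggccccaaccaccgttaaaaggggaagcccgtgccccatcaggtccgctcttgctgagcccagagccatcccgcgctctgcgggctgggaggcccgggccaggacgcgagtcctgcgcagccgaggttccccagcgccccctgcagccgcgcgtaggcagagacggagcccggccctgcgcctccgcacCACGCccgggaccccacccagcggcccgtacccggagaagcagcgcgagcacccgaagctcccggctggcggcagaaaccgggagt
LGALS3 promoter: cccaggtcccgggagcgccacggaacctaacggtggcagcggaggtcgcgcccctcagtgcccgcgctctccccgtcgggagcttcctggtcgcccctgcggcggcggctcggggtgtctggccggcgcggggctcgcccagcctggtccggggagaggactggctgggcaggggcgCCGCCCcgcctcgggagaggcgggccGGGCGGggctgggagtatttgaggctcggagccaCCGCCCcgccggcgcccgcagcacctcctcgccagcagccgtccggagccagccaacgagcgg
The CD44 window holds 2 GC boxes, that of LGALS3 3 and that of ITGA4 none, where 45% of all 35116 windows hold at least 1. ITGA4 has the GCGTG core on its opposite strand, which 36.5% of windows hold, and none of the 3 has a TATA motif, which 11.5% hold. They contain 18 (CD44), 31 (ITGA4) and 39 (LGALS3) CG pairs, against a median of 14 over all windows. The LGALS3 start site used by RefSeq lies 5142 bases inside the gene as GENCODE 29 bounds it. Over the 20 libraries CD44 correlated with LGALS3 at r = 0.87 and with ITGA4 at r = 0.85 on the log2(FPKM + 1) scale, as a description over libraries that share 5 models.

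SELPLG (ENSG00000110876.9, chr12:108622277-108633959, minus strand) carries the sugars that P-selectin binds. Its controls held 184 and 190 FPKM in U266, 35.3 and 34.1 in RPMI8226, 42.2 and 17.7 in ANBL6BR, 29.2 and 23.2 in ANBL6 and 17.2 and 16.7 in ARP1. U266 was above RPMI8226 (limma adjusted p = 4.66e-06), and no later step was called (0.306, 0.897 and 0.0729). With I3MO the libraries held 89.8 and 82.7 FPKM in U266, 14.4 and 16.6 in RPMI8226, 17.3 and 16.2 in ANBL6BR, 16.5 and 18.6 in ANBL6 and 6.84 and 7.13 in ARP1. No treated library reached the lower control of its model, although in ANBL6BR the nearest pair was 17.3 against 17.7 FPKM.

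SELPLG fell in ARP1 (log2 difference -1.17 ± 0.26 SE, limma adjusted p = 0.00424), RPMI8226 (-1.12 ± 0.26, 0.0129) and U266 (-1.11 ± 0.26, 0.00781). The fragment ratios were 0.412, 0.450 and 0.460, and 0.667 in ANBL6 and 0.557 in ANBL6BR, where the differences of -0.55 and -0.68 were not called (limma adjusted p = 0.247 and 0.10). In ANBL6BR the value rested on which control was used: without DMSO replicate 2 it was -1.29 and called (limma adjusted p = 5.93e-05), and without DMSO replicate 1 it was -0.08 (0.834). The call in RPMI8226 was lost without DMSO replicate 1 (limma adjusted p = 0.07), DMSO replicate 2 (0.061) or I3MO replicate 1 (0.10), each with a log2 difference of -1.02 or lower. No promoter window of SELPLG was used here.

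Of 20 selectins and genes that build selectin ligands, 12 were tested: 5 rose and 2 fell in ARP1, 1 rose and 5 fell in U266, 1 rose and 3 fell in RPMI8226, none rose and 3 fell in ANBL6BR, and 1 rose and 1 fell in ANBL6. ST3GAL6, an enzyme that caps selectin ligands with sialic acid, rose in ANBL6 and ARP1 (log2 differences 0.32 and 0.34) and fell in RPMI8226 from 1.92 and 2.31 to 0.986 and 0.905 FPKM (-0.68, limma adjusted p = 0.000217).

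SPP1 (ENSG00000118785.12, chr4:87975650-87983426, plus strand), which encodes osteopontin, had the widest range of DMSO levels in the set. Its controls held 199 and 185 FPKM in ANBL6BR, 21.4 and 9.27 in ANBL6, 12.1 and 12.8 in RPMI8226, 3 and 4 fragments in U266 and 0 fragments in both ARP1 libraries. ANBL6BR was above ANBL6 (limma adjusted p = 6.14e-08) and RPMI8226 above U266 (3.84e-08), while ANBL6 and RPMI8226 (0.617) and U266 and ARP1 (0.952) were not called apart. Against the limit of 3 fragments that a count of 0 allows over the group, SPP1 was at least 1605-fold higher in RPMI8226 than in ARP1.

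In ANBL6BR with I3MO, SPP1 fell to 36.7 and 41.4 FPKM, far below both controls. The log2 difference was -2.27 ± 0.25 (SE, limma adjusted p = 9.29e-05) and the fragment ratio 0.204 (95% interval 0.20 to 0.207, counting error only). In ANBL6 the treated libraries held 7.61 and 5.73 FPKM, also below the controls, a log2 difference of -0.995 ± 0.25 (SE, limma adjusted p = 0.0295). Here 1 control library carried much of the difference: without ANBL6 DMSO replicate 1 it was -0.43 (limma adjusted p = 0.0997), and without I3MO replicate 2 it was -0.82 (0.231). RPMI8226 held 12.1 and 11.6 FPKM, U266 2 and 12 fragments and ARP1 0 in both treated libraries.

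Of 20 matrix ligands 8 were tested, and SPP1 was not alone in falling in ANBL6BR: LAMC1, a laminin chain, fell from 12.5 and 11.3 to 6.30 and 6.43 FPKM (limma adjusted p = 0.000454). LAMC1 and LAMA5 fell in RPMI8226, and LAMA5 fell in ANBL6 from 3.43 and 3.69 to 2.44 and 1.88 FPKM (limma adjusted p = 0.0177) but rose in U266 from 1.11 and 1.17 to 2.70 and 2.21 (0.000951). In U266 3 matrix ligands rose and none fell, in ARP1 1 rose and none fell, and in each of ANBL6, ANBL6BR and RPMI8226 none rose and 2 fell. Of 25 matrix proteases and inhibitors 14 were tested: 5 rose and 6 fell in ARP1, 1 rose and 3 fell in U266, 1 rose and 2 fell in ANBL6BR, none rose and 2 fell in RPMI8226, and none was called in ANBL6. MMP15, a membrane-bound protease, fell in U266 from 5.89 and 4.98 to 0.459 and 0.532 FPKM (log2 difference -2.10, limma adjusted p = 9.75e-09).

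LGALS1 (ENSG00000100097.10, chr22:37675608-37679806, plus strand), which encodes galectin-1, was abundant outside ANBL6. DMSO libraries held 178 and 217 FPKM in ARP1, 140 and 132 in U266, 84.7 and 60.3 in ANBL6BR, 68.4 and 60.7 in RPMI8226 and 6.49 and 8.03 in ANBL6. ARP1 was above U266 (limma adjusted p = 0.04), U266 above ANBL6BR (0.00131) and RPMI8226 above ANBL6 (7.96e-08), with no call between ANBL6BR and RPMI8226. Treated ARP1 libraries fell to 122 and 140 FPKM, a log2 difference of -0.58 ± 0.20 (SE, limma adjusted p = 0.0385). This call was lost when any 1 of the 4 ARP1 libraries was left out (limma adjusted p = 0.0546 to 0.213) and without the filter on low values (0.0961).

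In the other models the LGALS1 log2 difference was above 0. Treated libraries held 9.80 and 15.5 FPKM in ANBL6, 92.9 and 106 in ANBL6BR, 74.5 and 65.7 in RPMI8226 and 164 and 147 in U266, higher than the controls without overlap except in RPMI8226. None was called, the nearest being ANBL6 at 0.70 ± 0.20 (SE, limma adjusted p = 0.0531).

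LGALS3 (ENSG00000131981.14, chr14:55124110-55145413, plus strand), which encodes galectin-3, spanned a wide range: its controls held 74.4 and 69.6 FPKM in U266, 56.9 and 46.6 in ANBL6BR, 5.70 and 6.43 in ARP1, 1.15 and 1.24 in RPMI8226 and 0.19 and 0.214 in ANBL6. All 4 steps of that order were called, the weakest at a limma adjusted p of 0.00294 between U266 and ANBL6BR. LGALS3 rose in RPMI8226 to 2.10 and 2.50 FPKM, with a log2 difference of 0.59 ± 0.12 (SE, limma adjusted p = 0.00451) and a fragment ratio of 1.95 (95% interval 1.65 to 2.30, counting error only). Without I3MO replicate 2 this became 0.50 (limma adjusted p = 0.0529). Treated libraries held 0.366 and 0.427 FPKM in ANBL6, 56.8 and 57.3 in ANBL6BR, 7.36 and 7.85 in ARP1 and 52.0 and 65.9 in U266, none called; they lay above the controls in ANBL6 and ARP1 and below them in U266. With a pseudocount of 0.1 the difference in ANBL6 was 0.71 and called (limma adjusted p = 0.00906), against 0.22 (0.30) with 1.

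Of 13 galectin genes 6 were tested: none rose and 1 fell in ANBL6, 1 rose and 2 fell in ARP1, 1 rose and 1 fell in RPMI8226, and none was called in ANBL6BR or U266. These counts include the fall of LGALS1 in ARP1 and the rise of LGALS3 in RPMI8226. LGALS9, whose product binds sugars with a pair of domains, fell in RPMI8226 from 1.70 and 1.82 to 0.774 and 0.717 FPKM (limma adjusted p = 2.38e-05), and LGALS2 fell in ANBL6 from 6.91 and 5.86 to 2.94 and 3.26 (0.0294). Of 13 tetraspanins 12 were tested: none was called in ANBL6, 1 rose and 2 fell in ANBL6BR, none rose and 2 fell in ARP1, 1 rose and 3 fell in RPMI8226, and 2 rose and 3 fell in U266. CD53, a leukocyte tetraspanin of the membrane platforms in which integrins sit, fell in ANBL6BR, ARP1, RPMI8226 and U266, in U266 from 59.1 and 56.1 to 28.7 and 35.0 FPKM (limma adjusted p = 0.000336).

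**Figure D2:**
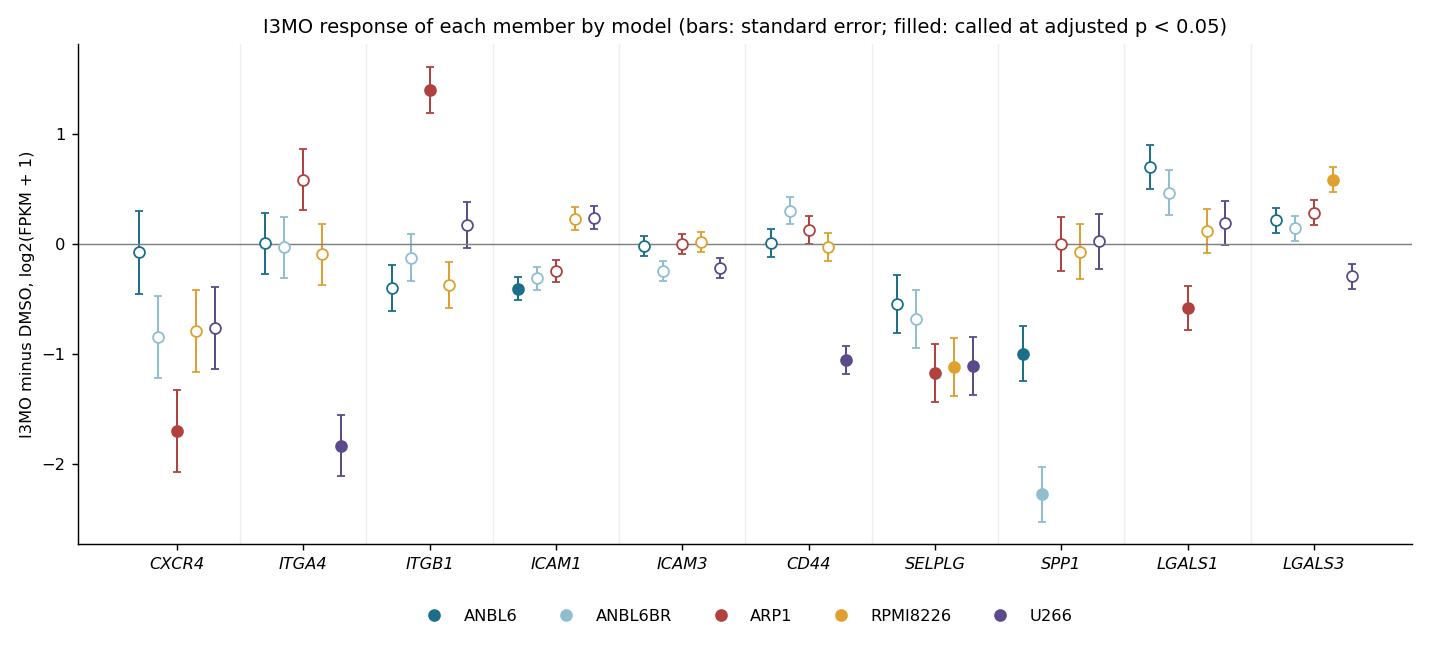
Difference of I3MO minus DMSO on the log2(FPKM + 1) scale (vertical axis) for each gene (horizontal axis) in the 5 models; bars are standard errors and filled points are called at an adjusted p under 0.05. SELPLG and CXCR4 are below 0 in all 5 models, the former between -0.55 and -1.17 and the latter from -0.08 in ANBL6 to -1.70 in ARP1. ITGA4, ITGB1, CD44, SPP1 and LGALS1 each have 1 or 2 models far from the rest.

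Whether the response depended on the model was tested for each gene by an F test over the 5 responses. The share of the 10 called is a description, as they were chosen with earlier results of these data known. It was called for 7 of the 10, against 44.5% of all tested genes: ITGA4 (largest minus smallest log2 response 2.42, limma adjusted p = 0.00385), ITGB1 (1.80, 0.00256), ICAM1 (0.64, 0.00682), CD44 (1.35, 0.000787), SPP1 (2.30, 0.00111), LGALS1 (1.28, 0.0232) and LGALS3 (0.88, 0.0115). LGALS1 no longer passed on leaving out DMSO replicate 1 of ANBL6 (limma adjusted p = 0.0527), ARP1 DMSO replicate 2 (0.0793) or ARP1 I3MO replicate 1 (0.0884), nor did LGALS3 with the replicate block (0.0505). For SELPLG it was not called (0.62, limma adjusted p = 0.437), nor for CXCR4 (1.62, 0.168) or ICAM3 (0.26, 0.228); CXCR4 was called with a pseudocount of 0.1 (2.39, 0.0416). The ANBL6BR controls bear on this: without DMSO replicate 1 of ANBL6BR the test was called for SELPLG (1.09, limma adjusted p = 0.000883) and CXCR4 (1.64, 0.00484), and without replicate 2 for SELPLG (0.74, 0.0125), CXCR4 (1.62, 0.00527) and ICAM3 (0.43, 0.00927).

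Taking each model as 1 pair of means, SELPLG had a mean log2 response of -0.93 ± 0.13 (SE, limma adjusted p = 0.0918) and CXCR4 of -0.83 ± 0.21 (0.144), each below 0 in 5 of 5 models. No gene of the 15687 was called in this comparison (0% higher and 0% lower by limma), although 2651 genes, SELPLG and CXCR4 among them, had an unadjusted p under 0.05. The other 8 genes had adjusted p-values of 0.373 to 0.805. For CXCR4 the response in ANBL6 was only -0.08, with overlapping libraries, and it was 0.02 without ANBL6 DMSO replicate 2. The share of all genes below 0 in 5 of 5 models was not counted.

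**Figure D3:**
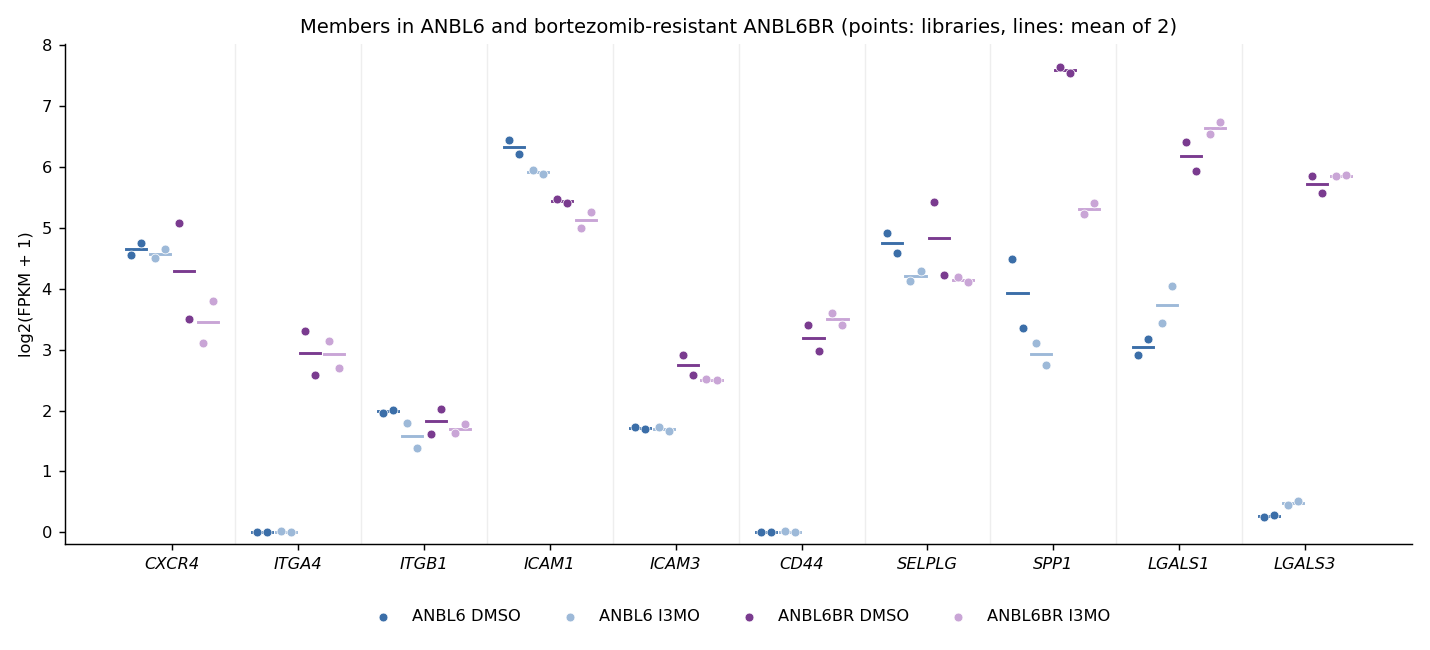
Level on the log2(FPKM + 1) scale (vertical axis) of each gene (horizontal axis) in ANBL6 (blue) and ANBL6BR (purple), DMSO in the darker and I3MO in the lighter shade; points are libraries and lines the mean of 2. ITGA4 and CD44 lie near 0 in ANBL6 and well above 0 in ANBL6BR, and SPP1 in ANBL6BR is lower with I3MO.

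Between the untreated forms of ANBL6, 6 genes were higher in the resistant form, 1 was lower and 3 were not called. Over all tested genes 27.0% were called higher and 24.8% lower in ANBL6BR, and the median log2 difference of the 10 genes was 1.99 against 0 for all. As the 10 were chosen with earlier results of these data known, this contrast describes them and does not test the set. LGALS3 (log2 difference 5.45 ± 0.12 SE, limma adjusted p = 1.01e-12), SPP1 (3.67 ± 0.25, 6.14e-08), CD44 (3.20 ± 0.13, 3.27e-10), LGALS1 (3.14 ± 0.20, 3.57e-08), ITGA4 (2.95 ± 0.28, 1.36e-06) and ICAM3 (1.03 ± 0.09, 7.64e-07) were higher and ICAM1 (-0.88 ± 0.10, 1.13e-05) was lower. In fragments the ratio was 256 for LGALS3 (95% interval 183 to 370), 12.5 for SPP1 (12.15 to 12.88) and 9.99 for LGALS1 (9.21 to 10.85), for counting error only. For ITGA4 and CD44, with 1 fragment each over both ANBL6 libraries against 3145 and 9247, the lower bounds of the 95% interval were 565 and 1663.

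CXCR4, ITGB1 and SELPLG were not called between the forms, and for CXCR4 and SELPLG the outcome turned on which ANBL6BR control was kept. Without ANBL6BR DMSO replicate 1 CXCR4 was lower (-1.14, limma adjusted p = 0.00242) and SELPLG lower (-0.53, 0.00411) than in ANBL6; without replicate 2 CXCR4 stood at 0.43 (0.19) and SELPLG was higher (0.68, 0.000778). No direction can be given for either gene. The 7 calls were kept under every alternative run.

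Genes of the wider adhesion lists also differed between the forms, where 27.0% of all tested genes were called higher and 24.8% lower. The counts include any of the 10 genes that belong to a list. Higher and lower calls in ANBL6BR numbered 3 and 4 of 11 chemokine and sphingosine phosphate genes, 6 and 8 of 16 integrin activation genes, 4 and 3 of 9 immunoglobulin-family genes, 5 and 4 of 12 selectin genes, 7 and 2 of 12 hyaluronan and proteoglycan genes, 3 and 2 of 8 matrix ligands, 3 and 2 of 6 galectins, 7 and 2 of 14 proteases and inhibitors and 3 and 6 of 12 tetraspanins. Of the 13 tested integrin chains 6 were higher and 6 lower: ITGAL, the alpha chain of LFA-1, stood at 10.1 and 8.61 against 0.423 and 0.477 FPKM, while its partner ITGB2 stood at 0.0547 and 0.0331 against 3.31 and 3.17 and ITGB5 at 0.0191 and 0.0193 against 8.69 and 7.88. Among the kindlins, which help talin open integrins, FERMT1 was at 0.00564 and 0 against 9.84 and 11.8 FPKM and FERMT3 at 11.3 and 22.0 against 0.395 and 0.347. PECAM1 (27.0 and 9.91 against 0.233 and 0.317 FPKM) and FN1 for fibronectin (5.48 and 2.65 against 0.27 and 0.39) were higher, and COL4A2, a basement membrane collagen (0 and 0.006 against 6.96 and 7.54), and LGALS2 (0.0697 and 0 against 6.91 and 5.86) were lower. The sum of B cell markers was 10.1 to 18.0 FPKM in the ANBL6BR controls against 0.758 to 0.821 in ANBL6. Nearly all of it in ANBL6BR was CD79B (17.9 and 10.1 against 0 and 0.0137 FPKM). CR2 went the other way (0.01 and 0.0152 against 0.794 and 0.723 FPKM), and the other B cell markers stayed near 0 in both forms. Erythroid markers summed to 4.37 to 5.99 against 0.286 FPKM, most of it HBB (5.7 and 4.2 against 0 and 0). The part of either sum in the result was not tested. Across the 15687 tested genes the DMSO means of ANBL6BR and ANBL6 correlated at r = 0.815, and those of ANBL6 and RPMI8226 at r = 0.831.

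The I3MO response at the shared dose of 5 µM differed between ANBL6BR and ANBL6 for SPP1, by -1.28 ± 0.35 (SE, limma adjusted p = 0.043), the response being -2.27 in ANBL6BR and -0.995 in ANBL6. This comparison shares the control libraries with those above. Over all genes 4.14% were called with a higher and 4.33% with a lower response in ANBL6BR, and SPP1 was the only member called. The call was lost with a pseudocount of 0.1 (-1.22, limma adjusted p = 0.108), without the filter (0.0584), with only the compared libraries (0.235), and without any 1 of 6 of the 8 libraries (0.0619 to 0.125), in 9 of 14 alternatives in all. The difference ran from -1.84 without ANBL6 DMSO replicate 1 to -0.71 without ANBL6 DMSO replicate 2, and was called in both. For the other 9 genes the differences ran from -0.76 (CXCR4, limma adjusted p = 0.434) to 0.30 (CD44, 0.359).

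**Figure D4:**
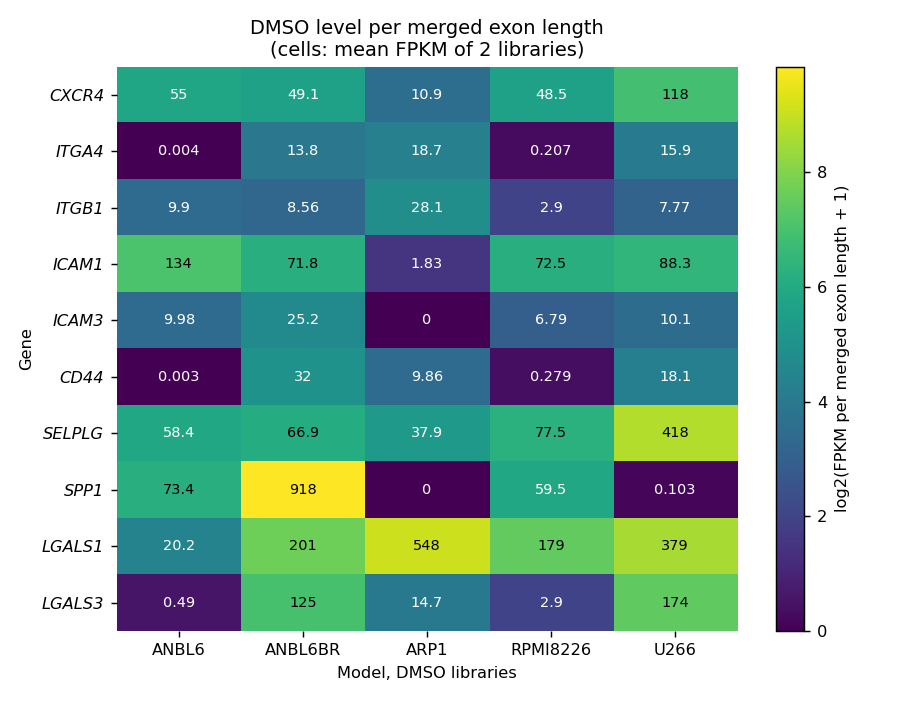
Mean DMSO level of each gene (rows) in the 5 models (columns), in FPKM rescaled to the merged exon length; colour shows log2(value + 1) and the printed numbers are FPKM. SPP1 in ANBL6BR (918) and LGALS1 in ARP1 (548) are the highest cells, and ITGA4 and CD44 in ANBL6 are near 0.

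The levels of all 10 genes in DMSO differed among the models, as did 90.0% of all tested genes (limma F test). To compare the genes with each other, FPKM were rescaled from the gene length behind the deposited values, which for 9 of the 10 genes adds up the exons of all GENCODE 29 transcripts (for CD44 it was 38598 bases against a sum of 41960), to the merged exon length, which raised values 1.68 times for ICAM1 and 4.78 times for SPP1. On this scale the leading gene was ICAM1 in ANBL6 (134 ± 15.3 FPKM, SD, n = 2), SPP1 in ANBL6BR (918 ± 45.2), LGALS1 in ARP1 (548 ± 76.6) and RPMI8226 (179 ± 15) and SELPLG in U266 (418 ± 9.62). In U266, LGALS1 followed SELPLG at 379 ± 15.6 FPKM. The VLA-4 chains were lower: in ARP1, where both peaked, ITGB1 stood at 28.1 ± 8.41 and ITGA4 at 18.7 ± 5.91 FPKM (SD, n = 2), with overlapping libraries. ITGB1 exceeded ITGA4 in ANBL6 (9.90 against 0.00437) and RPMI8226 (2.90 against 0.207) and was below it in ANBL6BR (8.56 against 13.8) and U266 (7.77 against 15.9). In ANBL6BR the libraries overlapped, with ITGB1 at 6.86 and 10.27 FPKM and ITGA4 at 17.64 and 9.88.

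CXCR4 and ICAM1 also varied together over the 20 libraries (r = 0.86, a description over the same 5 models), both being lowest in ARP1, and their promoter windows lie at chr2:136118100-136118399 (minus strand) and chr19:10270870-10271169 (plus), with capitals as above.
CXCR4 promoter: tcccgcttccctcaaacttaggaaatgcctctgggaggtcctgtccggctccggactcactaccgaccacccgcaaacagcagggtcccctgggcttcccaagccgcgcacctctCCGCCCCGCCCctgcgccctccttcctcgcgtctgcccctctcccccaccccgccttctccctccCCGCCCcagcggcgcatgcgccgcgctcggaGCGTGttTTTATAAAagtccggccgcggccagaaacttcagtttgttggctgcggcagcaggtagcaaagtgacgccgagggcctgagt
ICAM1 promoter: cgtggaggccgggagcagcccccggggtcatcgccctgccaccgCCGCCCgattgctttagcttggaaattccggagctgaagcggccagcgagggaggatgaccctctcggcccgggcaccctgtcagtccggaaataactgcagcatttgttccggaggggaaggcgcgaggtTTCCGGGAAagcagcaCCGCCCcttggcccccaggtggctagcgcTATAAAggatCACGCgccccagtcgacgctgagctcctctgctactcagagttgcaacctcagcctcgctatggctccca
Both windows hold a TATA motif a short way before the start, GC boxes (3 in CXCR4, 2 in ICAM1) and 1 GCGTG core; in CXCR4 the TATA letters read on both strands and count as 2. ICAM1 alone of the 8 genes with a window has the STAT motif, which 7.7% of all windows hold. The windows of SPP1 and ICAM3 hold none of the 6 motifs and 6 and 7 CG pairs.

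Outside the set, the 3 protein-coding genes most like each member were named by Pearson r over the 20 libraries, among 3945 genes with a mean of at least 5 FPKM. The likest were UBE2L6 for CXCR4 (r = 0.96), SNX18 for ITGA4 (0.942), BMI1 for ITGB1 (0.939), LRRC47 for ICAM1 (0.969), B4GALT1 for ICAM3 (0.958), ACTR5 for CD44 (0.951), PBXIP1 for SELPLG (0.951), ADTRP for SPP1 (0.954), RTL8C for LGALS1 (0.952) and PIP4P1 for LGALS3 (0.968). VIM, the intermediate filament vimentin, was the third for ITGA4 (0.935). With 5 models behind 20 libraries, such values mostly describe how levels differ between models.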

How the data were processed

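RNA was sequenced from 20 libraries, 2 for each of 5 models with DMSO or I3MO. The authors deposited 1 joint matrix of FPKM values for 60483 genes; per the submitters' processing notes, Trimmomatic (0.32 and 0.36), STAR, SAMtools and the hg38 build were used. The counter, its annotation and its use of strand are not given in the sources used here. Gene identifiers were matched to GENCODE 29, with 56753 given a symbol.

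Fragments were recovered from the FPKM steps (100% of values whole, tolerance 0.02), with totals of 12.11 to 20.31 M fragments per library; the gene length behind the values was the sum over exons of all GENCODE 29 transcripts for 9 of the 10 genes, and shorter for CD44. Because the values are FPKM, limma 3.58.1 (R 4.3.3) was fitted to log2(FPKM + 1) with a variance trend and 10 group means, on 15687 genes with at least 1 FPKM in at least 2 libraries; tests were two-sided and adjusted by Benjamini-Hochberg, with a threshold of 0.05. The response across models used 10 means with model as a block. The procedure was tested on simulated data. Intervals on fragment ratios are exact at 95% and cover counting error only, and the limit for a count of 0 was 3 fragments.

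The 10 genes, the pathway lists and the marker lists were chosen with earlier results of these data known. From each list the text names, per comparison, up to 3 genes other than the 10 with the smallest p-values among called genes whose libraries did not overlap. Promoter windows are from RefSeq (GRCh38.p14), found for 8 of the 10 genes. Alternatives were a pseudocount of 0.1, no filter, median-ratio scaling, the replicate number as a block, no variance trend, only the compared libraries and leaving out each library. Same-numbered replicates of DMSO and I3MO did not deviate together (r from -0.113 to 0.034 by model), so the numbers were not used as pairs.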

Additional observations from a re-analysis of the deposited data

Results flagged for a closer look

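The response to I3MO differed between models by a test of the difference itself for 7 of the 10 genes, against 44.5% of all tested genes. That share is a description, as the 10 were chosen with earlier results of these data known. The largest minus the smallest response over the 5 models, on the log2(FPKM + 1) scale, was 2.42 for ITGA4 (limma adjusted p = 0.00385), 1.80 for ITGB1 (0.00256), 0.64 for ICAM1 (0.00682), 1.35 for CD44 (0.000787), 2.30 for SPP1 (0.00111), 1.28 for LGALS1 (0.0232) and 0.88 for LGALS3 (0.0115). The LGALS1 call was lost without any 1 of 3 libraries (limma adjusted p = 0.0527 to 0.0884) and the LGALS3 call with the replicate block (0.0505). The SPP1 response differed between ANBL6BR and ANBL6 by -1.28 (limma adjusted p = 0.043), a call lost in 9 of 14 alternatives, over which the difference ran from -1.84 to -0.71. Dose and model cannot be told apart between ANBL6 and ANBL6BR, at 5 µM, and the other models, which share 10 µM.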

How the results depend on the processing

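Of 1390 values of the 10 genes under alternatives, 1299 kept their direction and side of the threshold, 38 lost and 27 gained a call, and 26 changed sign or became 0, 24 of those on leaving out a library; 24 of 37 called results held under every alternative. Fitting only the compared libraries gave 0 members called in ANBL6, ANBL6BR and the difference between them, and 1 in ARP1 and U266. The difference had 0 with a pseudocount of 0.1 or without the filter. The replicate block gave 1 in ANBL6, where the ICAM1 call was lost (limma adjusted p = 0.0748), and 6 unequal responses, where that of LGALS3 was lost (0.0505). It changed 2 of 80 calls. Crossing the numbers in ARP1, tried after seeing the data, gave 5. Leaving out each library gave 0 to 2 in ANBL6, 1 to 4 in ANBL6BR, 3 to 4 in ARP1, 1 in RPMI8226, 3 to 4 in U266, 7 to 9 for ANBL6BR against ANBL6, 0 to 3 for the difference, 6 to 10 for unequal responses, 0 across models and 10 for levels. The sign changed, or for ICAM3 in ARP1 the value became 0, for no called value, in the following; the cause was not tested. Median-ratio scaling turned CD44 in ARP1 to -0.0855 and SELPLG in ANBL6BR against ANBL6 to -0.0086. The others did so on leaving out a library, with these ranges of the log2 difference. For I3MO in ANBL6, CXCR4 ran from -0.1756 to 0.0246, ITGA4 from -0.0032 to 0.0164 and ICAM3 from -0.0495 to 0.0119. For I3MO in ANBL6BR, ITGA4 ran from -0.3925 to 0.3336 and ITGB1 from -0.3308 to 0.0859. For I3MO in ARP1, ICAM3 ran from 0 to 0.0067. For I3MO in RPMI8226, ICAM3 ran from -0.0399 to 0.0819. For I3MO in U266, ITGB1 ran from -0.0814 to 0.4224 and SPP1 from -0.0131 to 0.0616. For ANBL6BR against ANBL6, CXCR4 ran from -1.1429 to 0.429, ITGB1 from -0.3761 to 0.0407 and SELPLG from -0.5296 to 0.679. For the difference of responses, CXCR4 ran from -1.5503 to 0.0215, ITGA4 from -0.3991 to 0.327, ICAM1 from -0.0393 to 0.2288, SELPLG from -0.7403 to 0.4683, LGALS1 from -0.5333 to 0.076 and LGALS3 from -0.2134 to 0.0692. SELPLG without ANBL6BR DMSO replicate 1 was -0.53 (limma adjusted p = 0.00411). Over all genes, calls in ANBL6 went from 1250 to 4181 without the filter, 456 with the replicate block and 18 with only the compared libraries; the last gave 64 in place of 2888 in ANBL6BR, 227 for 5801 in ARP1, 974 for 4117 in U266 and 317 for 1328 for the difference, which had 2888 without the filter and 452 with the block. The block gave 1541 for 2323 in RPMI8226 and 3942 for 6980 unequal responses. Genes at a few fragments have no usable fold.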
